A study of Mus musculus with 16 samples.

Results

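Control muscle from the KPC model, whose mice the labels give as a mixed strain, was compared with control muscle from the KPP and LLC models, whose mice the labels give as C57BL/6J. The libraries were chosen by the strain, model and condition in their labels alone: 6 of the series' 16 libraries, of which 2 were KPC controls and 4 were C57BL/6J controls (2 KPP controls and 2 LLC controls). The series measured RNA of the tibialis anterior, a shin muscle, in control and cachectic mice of 4 tumour models; cachexia is the loss of muscle and fat that tumours can cause. A further strain label, CD2F1, belongs to the 2 controls of the C26 model. CD2F1 is an F1 hybrid of a BALB/c and a DBA/2 parent. The CD2F1 controls entered the fit to add to its estimate of spread and are given beside some genes.

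No genotype, transgene, sex, age or treatment is given for any of these controls, and the strains that make up the mixed stock are not named. Strain, colony, model cohort and any allele carried with the model therefore cannot be told apart. Nothing in the labels states that the 2 libraries of a group came from separate animals, so p-values measure only the spread between these samples, which may be technical.

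C57BL/6J is the inbred strain from which the mouse reference genome was built, and it is known to carry a deletion within Nnt, the gene of a mitochondrial enzyme that makes NADPH. Inbred strains differ in coding and regulatory sequence and in the number of processed pseudogenes, which are copies of spliced transcripts pasted back into the genome. A stock of mixed descent can carry, at each locus, an allele of either origin. The tibialis anterior consists mostly of fast fibres, with few slow fibres and with endothelium, fibroblasts, macrophages and some fat between them.

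A level here is a log2 value of RPM, reads per 1000000 reads of the listed genes, not corrected for gene length, so levels are compared between libraries and not between genes. A difference is the mean of the 2 KPC controls minus the mean of the 4 C57BL/6J controls on that log2 scale, ± its standard error (SE). A gene was called where limma's moderated test gave a Benjamini-Hochberg adjusted p under 0.05 over all 12021 listed genes. Depth was 28584279 to 39999937 listed-gene reads per library, and replicates correlated at 0.990 to 0.993 across genes. Summed reads of 8 skeletal muscle fibre markers were 118686 and 112545 RPM in the KPC controls, against 112824 to 121048 in the C57BL/6J controls. Genes encoded in mitochondrial DNA took 11.1% and 11.4% of reads in the KPC controls, against 9.10% to 13.0% in the C57BL/6J controls.

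Of the 12021 genes, 116 differed between KPC and C57BL/6J control muscle (0.965%). There were 47 higher in KPC controls (0.391% of all genes) and 69 lower (0.574%), and 48 of the 116 differed by a log2 of at least 1. All 116 had KPC and C57BL/6J libraries that did not overlap. Over all genes 13.6% were without overlap in the higher direction and 11.5% in the lower. The calls were made on these same libraries, so the lack of overlap largely follows from the calling and is no separate support. The median difference over all genes was 0.013 on the log2 scale and the median SE was 0.13. At an unadjusted p under 0.05 there were 1899 genes of the 12021. With 0.965% of genes called, a short gene list without a call is near the share of all genes. Such a count is no result about the list.

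The count fell most when a KPC library was left out. That leaves 1 KPC sample and a larger SE, so a fall follows in part from the design of 2 against 4 libraries. The same holds for each call given below as lost without a KPC library. Without KPC control 1 there were 49 calls, of which 30 were among the 116, and without KPC control 2 there were 36, of which 27 were. Without LLC control 2 the count was 68, with 64 of the 116. Leaving out LLC control 1, KPP control 1 or KPP control 2 gave 85, 121 and 116 calls. The alternatives without both libraries of a cohort were chosen after seeing the data: without the KPP controls 890 genes were called, and without the LLC controls 176.

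The C57BL/6J cohorts also differed from each other. The cohort comparisons here used a fit with 1 mean per group, whereas the 116 calls came from 1 mean per strain label. The fit by strain label counts the difference between KPP and LLC controls as spread, so its count cannot be compared directly with those below. With 1 mean per C57BL/6J cohort, KPC minus C57BL/6J controls gave 454 calls, 211 higher and 243 lower. KPP controls minus LLC controls gave 390 called genes (3.24%), 345 higher (2.87%) and 45 lower (0.374%), but the median over all genes was shifted by 0.11 in that comparison. After each library was centred on its own median, 150 genes were called, 78 higher and 72 lower, and after quantile normalization 126, 71 higher and 55 lower. No gene was called by limma without LLC control 1 or without LLC control 2, where 2332 and 1769 genes had an unadjusted p under 0.05, and 77 were called without KPP control 2. Against the KPP controls alone the KPC controls gave 321 calls (2.67%), 71 higher (0.591%) and 250 lower (2.08%), or 90 higher and 196 lower after centring and 102 higher and 177 lower after quantile normalization. Against the LLC controls alone there were 692 calls (5.76%), 452 higher (3.76%) and 240 lower (2%). Centring turned that split to 213 higher and 425 lower, and quantile normalization to 244 higher and 374 lower. These comparisons share the KPC libraries. Without KPP control 2, KPC control 1 or KPC control 2 the KPP comparison fell to 106, 118 and 144 calls. The LLC comparison fell to 33 without LLC control 2, to 269 without LLC control 1, to 320 without KPC control 1 and to 122 without KPC control 2.

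**Figure D1:**
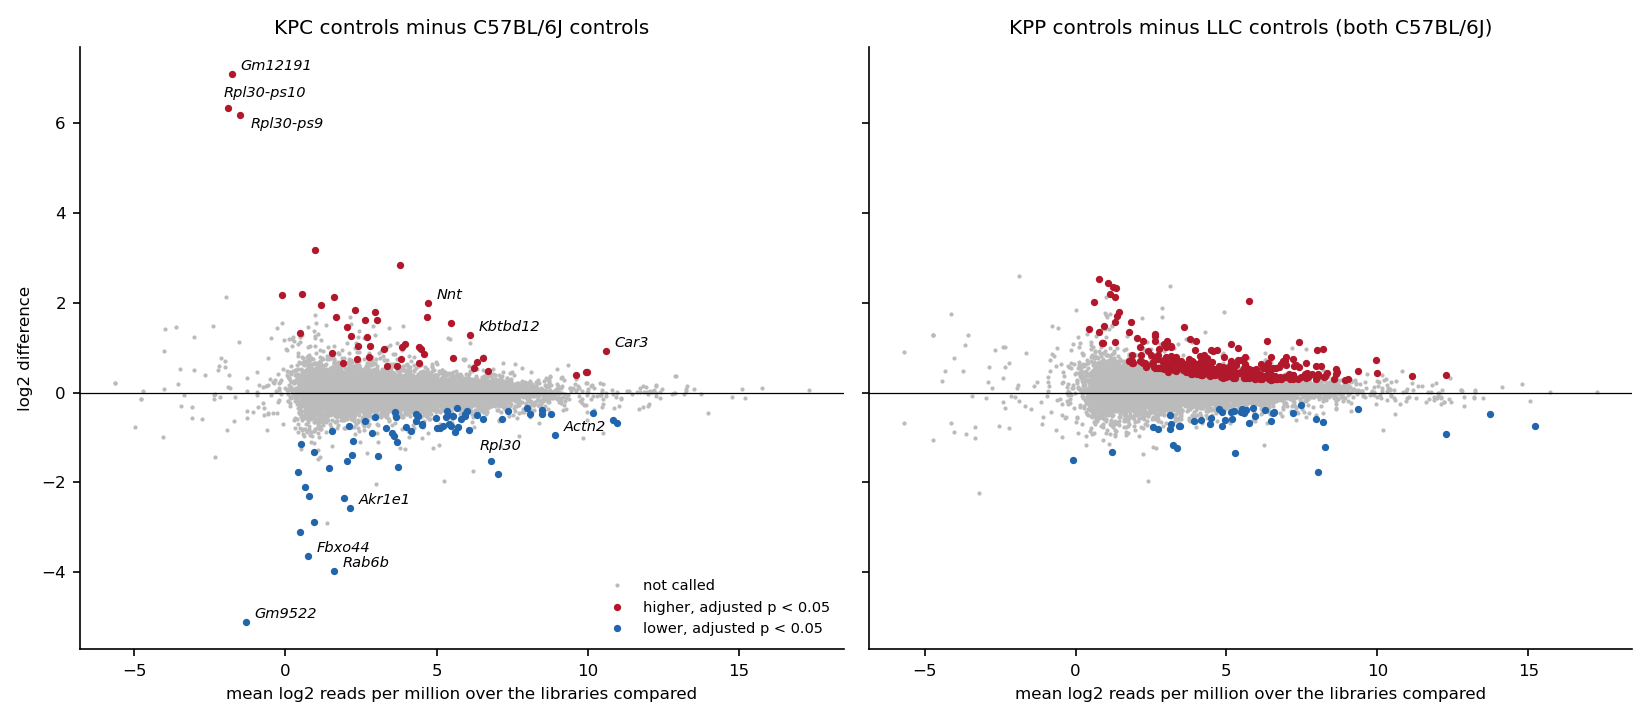
Log2 difference (y axis) against mean log2 RPM (x axis) for every listed gene, for KPC controls minus C57BL/6J controls on the left and KPP controls minus LLC controls on the right. Coloured points are the 116 and 390 genes with an adjusted p under 0.05. The 116 came from a fit with 1 mean per strain label and the 390 from 1 mean per group. With 1 mean per C57BL/6J cohort the count for the left comparison was 454. The left panel holds the largest differences, at 3 pseudogenes of Rpl30 (log2 6.18 to 7.09) and at Gm9522 (-5.10), and on the right most called genes lie above 0.

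Of the 116 genes, 17 were called whichever of the 6 libraries was left out; they were singled out after their values were seen. They were 5 protein-coding genes and 3 pseudogenes that were higher in KPC controls, and 7 protein-coding genes, 1 long noncoding RNA and 1 pseudogene that were lower.

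Nnt, the nicotinamide nucleotide transhydrogenase of the inner mitochondrial membrane (GRCm38 chromosome 13, 119335448 to 119408997, minus strand), had log2 levels of 5.96 and 6.13 in the KPC controls, against 3.90 and 4.27 in the KPP controls and 4.06 and 3.98 in the LLC controls. Both KPC libraries stood well above all 4 C57BL/6J libraries, which lay close together. The difference was 1.99 ± 0.11, a level 3.98-fold higher (limma adjusted p = 1.85e-05). The CD2F1 controls averaged 5.90, near the KPC level. In the annotation a second entry of the same symbol, not listed in the table, overlaps its exons.

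Kbtbd12, a kelch-domain gene on chromosome 6 (88545114 to 88637950, minus strand), had log2 levels of 6.95 and 6.96 in the KPC controls, against 5.59 and 5.75 in the KPP controls and 5.73 and 5.62 in the LLC controls. The groups did not overlap, and the difference of 1.28 ± 0.075 corresponded to a 2.43-fold higher level (limma adjusted p = 2.35e-05). Ddah1, which breaks down asymmetric dimethylarginine, an inhibitor of nitric oxide synthases, lies on chromosome 3 (145758675 to 145894277, plus strand). Its log2 levels were 3.64 and 3.42 in the KPC controls, against 2.25 and 2.51 in the KPP controls and 2.25 and 2.2 in the LLC controls. Each KPC library was above each C57BL/6J library, by 1.23 ± 0.13 between the means (limma adjusted p = 0.00202).

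Mettl21e, a muscle gene of a methyltransferase family (chromosome 1, 44204070 to 44218961, minus strand), had log2 levels of 2.65 and 3.42 in the KPC controls, against 0.94 and 1.15 in the KPP controls and 1.05 and 0.50 in the LLC controls. KPC control 2 was the higher of the KPC libraries, and the groups were still apart. The difference was 2.12 ± 0.23 (limma adjusted p = 0.00229). Gm15833, a pseudogene of Eif4b, lies within the span of Mettl21e on the other strand without sharing exonic bases. Psd3, which encodes an exchange factor of Arf GTPases (chromosome 8, 67689082 to 68212027, minus strand), differed by 0.68 ± 0.073 (limma adjusted p = 0.00202). Its log2 levels were 6.77 and 6.82 in the KPC controls, against 6.06 and 6.06 in the KPP controls and 6.22 and 6.12 in the LLC controls.

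Among the lower genes, Rab6b, a Rab GTPase of Golgi transport best known from neurons (chromosome 9, 103111787 to 103185276, plus strand), had log2 levels of -1.20 and -0.90 in the KPC controls, against 3.24 and 2.80 in the KPP controls and 2.96 and 2.76 in the LLC controls. It was at a low level in both KPC libraries and well detected in all 4 C57BL/6J libraries. The difference was -3.98 ± 0.21, a level 15.8-fold lower (limma adjusted p = 1.85e-05). The CD2F1 controls averaged -1.72, also far below C57BL/6J.

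Fzd6, a Frizzled receptor for Wnt ligands (chromosome 15, 39006034 to 39038188, plus strand), had log2 levels of 0.53 and 0.25 in the KPC controls, against 2.78 and 2.95 in the KPP controls and 2.61 and 2.57 in the LLC controls. The difference was -2.34 ± 0.15 (limma adjusted p = 5.72e-05), and here the CD2F1 controls, at 2.61, were near the C57BL/6J level. Akr1e1, an aldo-keto reductase that reduces anhydrofructose (chromosome 13, 4590750 to 4609174, minus strand), had log2 levels of -0.01 and 0.88 in the KPC controls, against 3.08 and 3.10 in the KPP controls and 2.96 and 2.89 in the LLC controls. It differed by -2.57 ± 0.21 (limma adjusted p = 0.000311), with CD2F1 controls at 2.82. Fzd6 and Akr1e1 were the 2 genes tested and called under every alternative run. Rab6b, Fbxo44, Zfp984, Gm12191, Rpl30-ps9 and Rpl30-ps10 were called under every alternative that tested them. The filter on a mean log2 of at least 2 left them untested. The long noncoding RNA 2610035D17Rik, on chromosome 11, was at -1.85 and -0.13 in the KPC controls, against 1.96 and 1.91 in the KPP controls and 1.69 and 1.99 in the LLC controls. It differed by -2.88 ± 0.40 (limma adjusted p = 0.00979), and the CD2F1 controls, at -1.90, were as low as the lower KPC library.

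**Figure D2:**
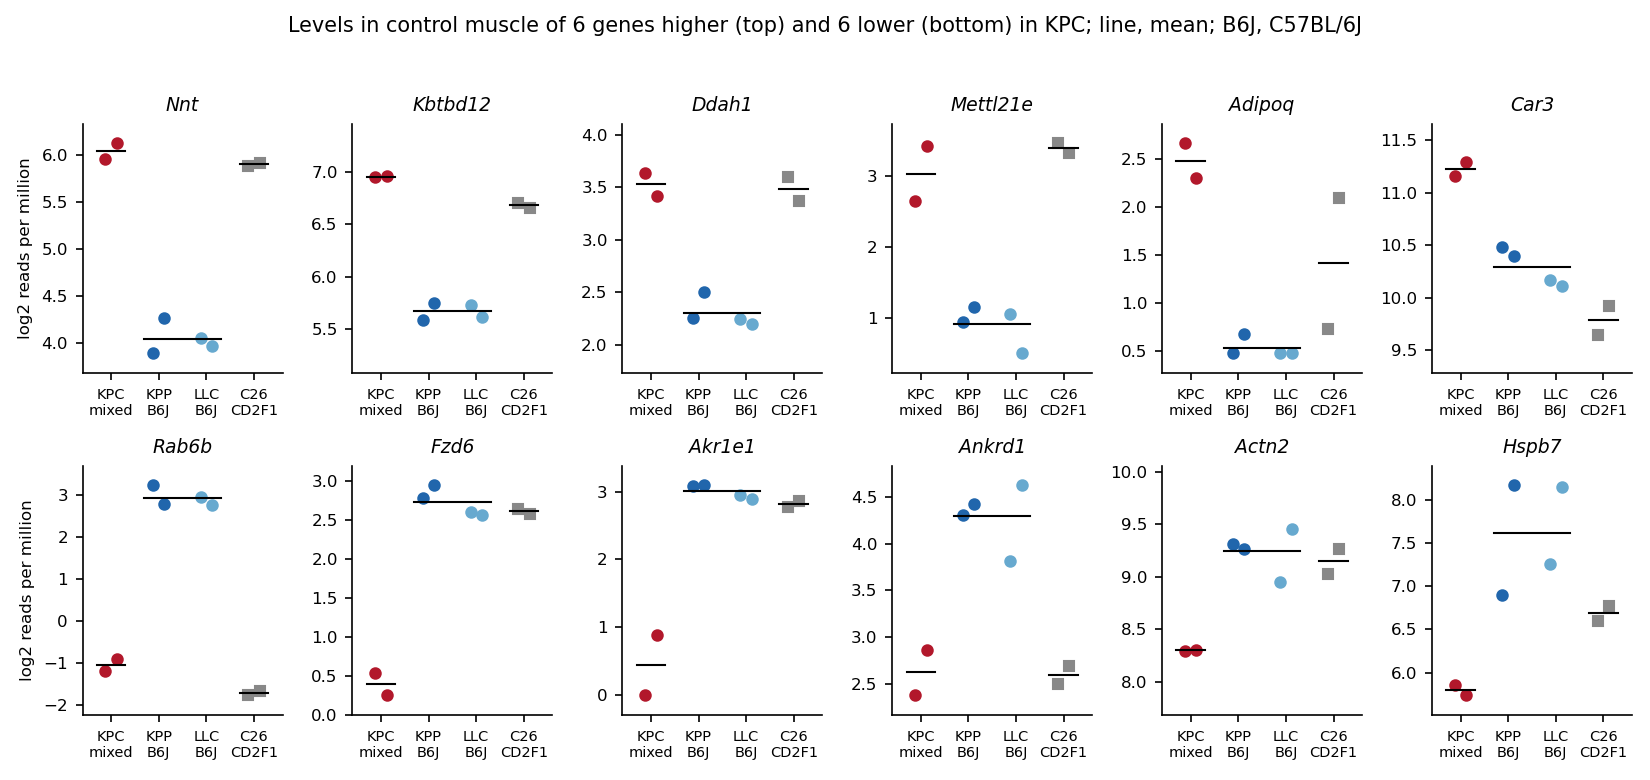
Log2 RPM (y axis, a separate range in each panel) in each control library of the KPC, KPP, LLC and C26 models (x axis) for 6 genes that were higher in KPC controls (top) and 6 that were lower (bottom). Points are libraries and lines are means, with 1 mean for the 4 C57BL/6J (B6J) libraries. In every panel the KPC points lie clear of the C57BL/6J points, while the C26 points lie near KPC for Nnt and Rab6b and near C57BL/6J for Fzd6 and Akr1e1.

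Called genes lay on every chromosome but Y, and no run of 3 neighbouring listed genes was called. Windows of 5 megabases, chosen after the calls were seen, held 3 or more called genes in 4 of 527 windows with a listed gene. The most calls in a window lay on chromosome 4, from 145000001 to 150000000, where 7 of 41 listed genes were called, all lower in KPC controls. Over all genes, 0.574% were called lower. The 41 genes had a median difference of -0.12, and 28 were below 0.

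Fbxo44, an F-box subunit of a ubiquitin ligase, had log2 levels of -2.33 and -1.04 in the KPC controls, against 1.92 and 1.98 in the KPP controls and 2.00 and 1.95 in the LLC controls. The C57BL/6J libraries lay close together and both KPC libraries were far below, with a difference of -3.65 ± 0.30 (limma adjusted p = 0.000359). Zfp982 and Zfp984, zinc-finger genes of a repeated cluster whose reads can be split among near-identical members, differed by -3.11 ± 0.36 and -2.3 ± 0.20 (limma adjusted p = 0.0039 and 0.000428). Mfn2, the mitofusin that joins outer mitochondrial membranes, had log2 levels of 8.21 and 8.12 in the KPC controls, against 8.63 and 8.71 in the KPP controls and 8.68 and 8.58 in the LLC controls. That difference of -0.48 ± 0.069 was smaller but without overlap (limma adjusted p = 0.0102). Miip, Agtrap and Gm572 completed the 7, at -1.52, -0.90 and -0.74.

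Fbxo44, Zfp982 and Zfp984 were among the genes called in every leave-out, while the call of Agtrap was lost without KPC control 2 and those of Mfn2, Miip and Gm572 without either KPC library; Gm572 was lost with any library left out. On chromosome 15, from 35000001 to 40000000, 4 of 21 genes were called, and all were lower: Fzd6, Spag1 (-1.77), Pabpc1 (-0.79) and the pseudogene Gm9522. The share of all genes called lower was 0.574%. Spag1 and Pabpc1 lost their calls without either KPC library, and Pabpc1 also without LLC control 2. The median difference over the 21 genes was -0.030.

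Rpl30, a protein of the large cytosolic ribosomal subunit, and 3 of its processed copies showed opposite differences. The coding sequence of Rpl30 is 348 bases long. Its first 120 bases are given with the same stretch of the 3 copies (GENCODE annotation on GRCm38), because reads of the coding sequence that tell the copies from the gene must cover the few bases that differ. Capitals in the copies mark bases that differ from Rpl30, and capitals in Rpl30 mark the bases replaced in any copy; Rpl30-ps9 begins at base 4.
Rpl30: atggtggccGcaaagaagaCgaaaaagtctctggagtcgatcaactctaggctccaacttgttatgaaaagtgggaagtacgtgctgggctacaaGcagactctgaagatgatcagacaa
Gm12191: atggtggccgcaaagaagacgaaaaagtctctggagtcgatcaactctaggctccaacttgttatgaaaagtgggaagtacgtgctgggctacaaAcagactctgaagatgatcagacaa
Rpl30-ps9: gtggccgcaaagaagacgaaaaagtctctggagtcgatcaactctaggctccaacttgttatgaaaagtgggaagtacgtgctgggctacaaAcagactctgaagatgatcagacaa
Rpl30-ps10: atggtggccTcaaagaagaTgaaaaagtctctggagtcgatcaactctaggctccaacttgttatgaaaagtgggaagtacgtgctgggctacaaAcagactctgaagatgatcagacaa
All 3 copies carry G96A, counted from the first base of the start codon, at the 3rd base of codon 32. Rpl30-ps9 also carries G342A, and Rpl30-ps10 carries G10T and C20T. Over the coding sequence the copies were 99.7% (Gm12191), 99.4% (Rpl30-ps9) and 99.1% (Rpl30-ps10) identical to Rpl30. Rpl30 lies on chromosome 15 (34440505 to 34443640, minus strand), Gm12191 on chromosome 11 (49678710 to 49679057, minus strand), Rpl30-ps9 on chromosome X (105278637 to 105278981, minus strand) and Rpl30-ps10 on chromosome X (71803688 to 71804034, plus strand).

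The gene itself had 43.7 and 47.9 RPM in the KPC controls, against 80.7 and 84.2 in the KPP controls and 76.6 and 82.9 in the LLC controls. It was lower in both KPC libraries than in every C57BL/6J library, by -0.83 ± 0.074 on the log2 scale (limma adjusted p = 0.000518). The copies together received 706 and 770 reads in the KPC controls, against 12 and 3 in the KPP controls and 6 and 7 in the LLC controls. By copy, Gm12191 had 284 and 326 reads in the KPC controls, against 4, 0, 1 and 4 in the C57BL/6J controls. Rpl30-ps9 had 248 and 228, against 7, 2, 2 and 1, and Rpl30-ps10 had 174 and 216, against 1, 1, 3 and 2. Each copy was thus at or near the 3-read floor in C57BL/6J and clearly counted in KPC (limma adjusted p = 0.00108, 0.000428 and 7.89e-05 for Gm12191, Rpl30-ps9 and Rpl30-ps10).

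Of all reads counted to Rpl30 or a copy, the copies took 29.9% (95% exact Clopper-Pearson interval 28.1% to 31.8%) in KPC control 1 and 28.7% (27.0% to 30.4%) in KPC control 2. In the C57BL/6J controls the share was 0.125% (0.0257% to 0.364%) in KPP control 2, 0.223% in LLC control 2, 0.233% in LLC control 1 and 0.391% (0.202% to 0.682%) in KPP control 1. Such intervals cover counting error only. The CD2F1 controls lay between, at 11.6% and 12.0%. Summed over gene and copies, the family had 64.8 ± 3.31 RPM in the KPC controls (SD, n = 2) and 81.3 ± 3.29 in the C57BL/6J controls (SD, n = 4), a log2 difference of -0.33. The 2 KPC sums were below all 4 C57BL/6J sums, and the two-sided exact permutation p was 0.133, the smallest that 2 against 4 libraries allow. Summing was chosen after seeing the data. Reads of near-identical copies can be divided between them by the aligner, which the sources used here do not name, so the values of Rpl30 and of each copy are uncertain one by one, and its part in the result was not tested.

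**Figure D3:**
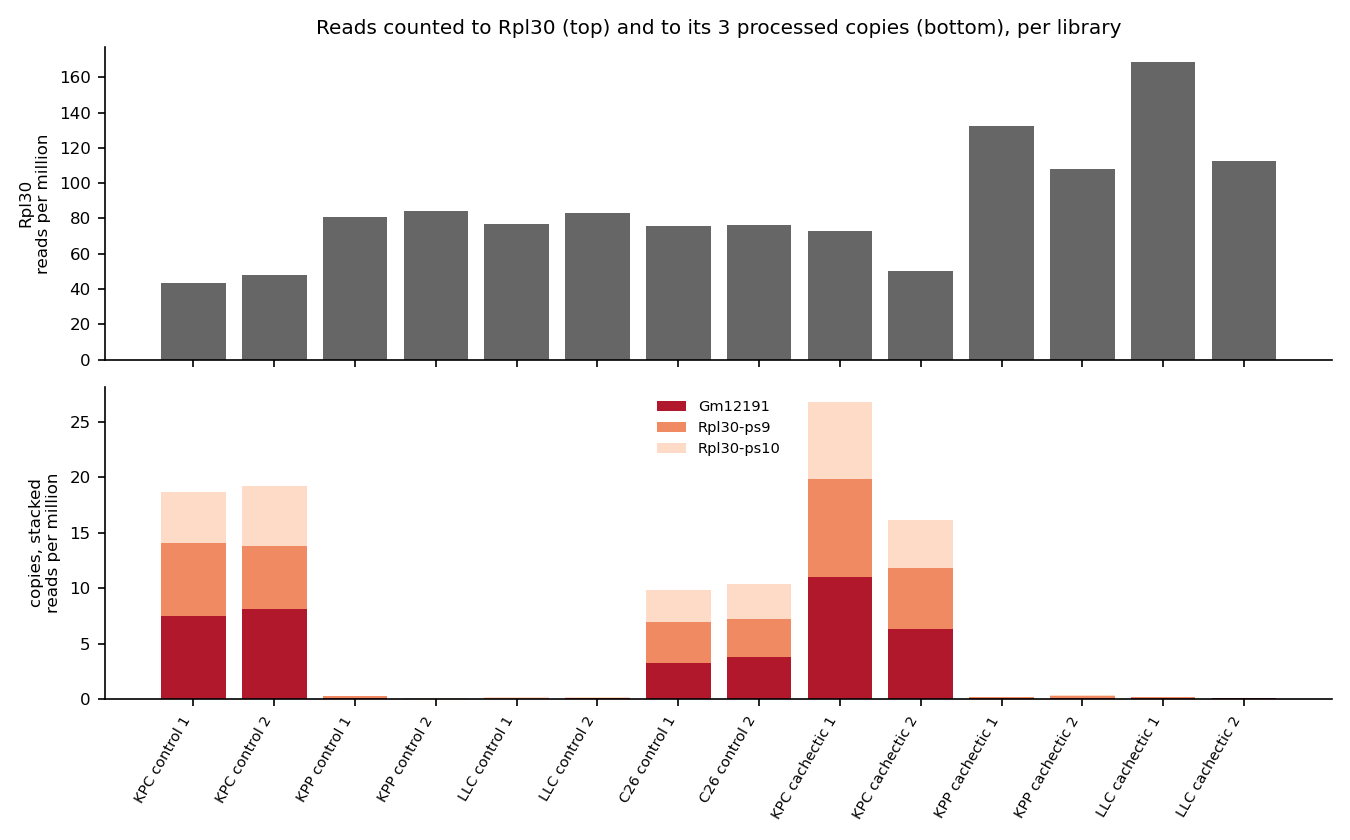
RPM counted to Rpl30 (top) and, stacked, to its 3 processed copies (bottom), with 1 bar per library for the KPC, KPP, LLC and C26 controls and the KPC, KPP and LLC cachectic libraries. The copies are visible in the KPC and C26 bars and close to 0 in all KPP and LLC bars, and the KPC controls have the lowest Rpl30 bars.

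Other copies behaved in different ways. Gm9522, a processed copy of Gapdh on chromosome 15, had 1 and 1 reads in the KPC controls, against 39 and 75 in the KPP controls and 53 and 26 in the LLC controls (limma adjusted p = 0.00172). Gm8116, a copy of Carnmt1, took 21.4% and 21.2% of the reads of the pair in the KPC controls, against 3.03% and 11.1% in the KPP controls and 2.77% and 2.51% in the LLC controls. KPP control 2 therefore stood apart from the other C57BL/6J controls at this copy, with a log2 level of 4.16, against 2.19 to 2.55. Both KPP cachectic libraries had a share near that of KPP control 2, at 12.2% each. The LLC cachectic libraries had 2.89% and 2.46%. Gm8116 was called (difference 2.83 ± 0.42, limma adjusted p = 0.0136) but not without KPC control 1 (0.0874) or KPC control 2 (0.114), with adjusted p between 1e-05 and 0.114 over all alternatives. For Eno1, 2 copies (Gm4735 and Eno1b) took 30.3% and 19.5% of the family's reads in the KPC controls, against 9.02% to 11.8% in the C57BL/6J controls.

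Of 18 measured genes of a lipid synthesis and adipocyte list, 3 were called, all higher in KPC controls, against 0.391% of all genes called higher. The 18 had a median difference of 0.18, against 0.013 over all genes, but the median was 0.020 against the KPP controls alone and 0.22 against the LLC controls alone. Adipoq, the adipocyte hormone adiponectin, had log2 levels of 2.66 and 2.3 in the KPC controls, against 0.47 and 0.67 in the KPP controls and 0.47 and 0.48 in the LLC controls. Both KPC libraries were above all C57BL/6J libraries, by 1.96 ± 0.31 (limma adjusted p = 0.0197). The call was lost without KPC control 1 (0.156) and without KPC control 2 (0.0992), and the adjusted p was 0.00186 to 0.156 over all alternatives.

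Scd1, the desaturase that makes oleate, had log2 levels of 6.23 and 6.81 in the KPC controls, against 5.10 and 4.84 in the KPP controls and 5.26 and 4.70 in the LLC controls. It differed by 1.54 ± 0.27 (limma adjusted p = 0.0304) and was not called without KPC control 1 (0.0654), KPC control 2 (0.268), KPP control 2 (0.0684) or LLC control 2 (0.0696), within 0.00704 to 0.631 over all alternatives. Car3, a carbonic anhydrase abundant in fat and in slow fibres, was 11.15 and 11.29 in the KPC controls, against 10.49 and 10.40 in the KPP controls and 10.17 and 10.11 in the LLC controls. Its difference was 0.93 ± 0.12 (limma adjusted p = 0.00605), lost without KPC control 2 (0.0781), within 0.00059 to 0.632. Plin1, which coats lipid droplets, had a difference of 1.5 that was not called (limma adjusted p = 0.07).

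Of 6 adipocyte markers, 4 were listed, all with a difference above 0 and 1 called. Their summed level was 30.6 and 26.3 RPM in the KPC controls, against 9.49 to 16 in the C57BL/6J controls; Lep and Retn, which mark fat cells, were not listed. In bulk muscle, more cells of a type and more RNA per cell cannot be told apart, for fat cells as for the other cell types here. The part of the fat content of the samples in the lipid genes was not tested.

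Among the 69 genes called lower were Ankrd1, Actn2, Hspb7, Xirp1 and Nrap, which bind to or lie in the sarcomere; they were chosen after their calls were seen, so their number says nothing of sarcomere genes in general. Ankrd1, a stress-induced ankyrin-repeat protein that binds titin, had log2 levels of 2.38 and 2.87 in the KPC controls, against 4.30 and 4.42 in the KPP controls and 3.82 and 4.62 in the LLC controls. All C57BL/6J libraries were above both KPC libraries, with a difference of -1.67 ± 0.21 (limma adjusted p = 0.00567), and the CD2F1 controls averaged 2.59, near KPC. The call was lost without KPC control 1 (0.0562), within 0.00107 to 0.632 over all alternatives.

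Actn2, an alpha-actinin of the Z-disc, was 8.29 and 8.30 in the KPC controls, against 9.31 and 9.26 in the KPP controls and 8.95 and 9.45 in the LLC controls. The difference was -0.95 ± 0.12 (limma adjusted p = 0.00638). Hspb7, a small heat shock protein of striated muscle that binds filamin, was 5.86 and 5.74 in the KPC controls, against 6.90 and 8.17 in the KPP controls and 7.25 and 8.15 in the LLC controls. Here the C57BL/6J libraries themselves spread over more than a log2 unit, and in each cohort the second replicate was the higher. Hspb7 differed by -1.82 ± 0.31 (limma adjusted p = 0.0247).

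Xirp1, an actin-binding protein induced on injury, differed by -1.52 ± 0.28 (limma adjusted p = 0.0371). Nrap, which anchors nascent myofibrils, differed by -0.67 ± 0.11 (limma adjusted p = 0.0197). The calls of Actn2, Hspb7, Xirp1 and Nrap were lost when either KPC library was left out, which leaves 1 KPC sample. Without KPC control 1 the limma adjusted p was 0.0583 for Actn2, 0.122 for Hspb7, 0.133 for Xirp1 and 0.124 for Nrap. Without KPC control 2 it was 0.07 for Actn2, 0.177 for Hspb7, 0.265 for Xirp1 and 0.155 for Nrap, and Xirp1 was also lost without KPP control 2 (0.0707). The highest values over all alternatives were 0.689, 0.777, 0.594 and 0.898, and the lowest 0.0011, 0.00383, 0.00653 and 0.00875, in the same order of genes.

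The slow fibre list, which holds Actn2, had 10 listed members, of which 1 was called lower, against 0.574% of all genes. Of the 10, 9 lay below 0, and the list median was -0.37. That median was -0.52 against the KPP controls alone and -0.072 against the LLC controls alone. Fast fibre and calcium genes had 0 of 23 called by limma, against 0.965% of all genes. Of the 23, 4 had an unadjusted p under 0.05, and the median was 0.023. Myh4, the myosin of the fastest fibres, had log2 levels of 15.92 and 15.74 in the KPC controls, against 15.77 and 15.69 in the KPP controls and 15.71 and 15.75 in the LLC controls. The groups overlapped (difference 0.098 ± 0.11, limma adjusted p = 0.719). Myh2, the myosin of oxidative fast fibres, was 9.80 and 10.01 in the KPC controls, against 10.70 and 11.39 in the KPP controls and 10.13 and 10.99 in the LLC controls, and was not called (difference -0.90, limma adjusted p = 0.142). Myh1 (-0.46) and Pvalb (0.13) were not called either, with limma adjusted p of 0.089 and 0.511.

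Single mitochondrial genes, chosen after their calls were seen, were called in both directions. Besides Mfn2, lower values were called for Perm1 (-0.47, limma adjusted p = 0.0247), a muscle partner of the PGC-1 coactivators, and for Ckmt2 (-0.45, limma adjusted p = 0.0431), the mitochondrial creatine kinase of muscle. Both were lost without KPC control 1 (0.0957 and 0.305) and without KPC control 2 (0.239 and 0.086), within 0.0108 to 0.979 and 0.0196 to 0.983 over all alternatives. Perm1 was also lost without LLC control 2 (0.0554), and Ckmt2 without KPP control 2 (0.0557), LLC control 1 (0.0786) or LLC control 2 (0.0776). Higher values were called for mt-Nd3, a complex I subunit encoded in mitochondrial DNA (0.45, limma adjusted p = 0.0349), and for the mitochondrial carrier Slc25a30 (0.65, limma adjusted p = 0.0479). The call of mt-Nd3 held only without KPP control 1 and was lost in the other 5 leave-outs (0.0557 to 0.239, within 0.0158 to 0.906 over all alternatives), and that of Slc25a30 was lost in all 6 (0.059 to 0.32, within 0.0234 to 0.485). Of 15 mitochondrially encoded genes, mt-Nd3 was the 1 called, against 0.391% of all genes called higher. Reads of mt-Nd3 can be split with the near-identical copy Gm28438. Nuclear genes of oxidative phosphorylation gave 0 of 44 calls by limma, 7 with an unadjusted p under 0.05, and a median of -0.014 that became 0.013 after quantile normalization. The tricarboxylic acid cycle list gave 0 of 18 calls, 3 with an unadjusted p under 0.05 and a median of -0.091. That median was -0.16 against the KPP controls alone and -0.023 against the LLC controls alone. For both lists, counts of 0 are near the 0.965% called over all genes.

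A glycolysis and glycogen list had 1 of 26 genes called, against 0.965% of all genes. It had 15 genes above 0 and a median of 0.018, close to that of all genes. Of single genes of carbohydrate metabolism, chosen after their calls were seen, Fbp2, the muscle fructose bisphosphatase (0.67), Slc37a4, the glucose 6-phosphate transporter (0.54), Prkag3, the AMPK subunit of fast fibres (0.48), and Pgm1, a phosphoglucomutase (0.39), were higher in KPC controls. Mlxipl, which encodes the glucose-responsive factor ChREBP, was lower, at -0.70 ± 0.089 (limma adjusted p = 0.00595, against 0.0823 without KPC control 2 and 0.00342 to 0.557 over all alternatives). The first 4 had limma adjusted p of 0.0476, 0.0216, 0.0373 and 0.0466, and each lost its call in at least 2 leave-outs.

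Some called genes encode ion channels, pumps or their subunits; they were chosen after their calls were seen and were not counted against all such genes. Kcnab1, an accessory subunit of voltage-gated potassium channels, had log2 levels of 2.53 and 3.03 in the KPC controls, against 1.42 and 1.36 in the KPP controls and 0.78 and 0.86 in the LLC controls. It was higher in both KPC libraries, with the LLC controls lowest (difference 1.67 ± 0.23, limma adjusted p = 0.00779). Kcnn3, a small-conductance calcium-activated potassium channel, had log2 levels of 1.82 and 2.40 in the KPC controls, against 3.36 and 3.91 in the KPP controls and 3.24 and 3.55 in the LLC controls. It was lower without overlap (difference -1.4 ± 0.20, limma adjusted p = 0.0104).

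Kcnc1, a fast voltage-gated potassium channel (-0.58), Cacna1c, a pore subunit of L-type calcium channels (-0.53), and Atp1b1, a beta subunit of the sodium pump (-0.58), were lower, with limma adjusted p of 0.00885, 0.026 and 0.0199. Exons of Atp1b1 overlap those of Nme7 in the annotation. The call of Kcnab1 was lost without KPC control 2 (0.109, within 0.0012 to 0.109), that of Kcnn3 without KPC control 1 (0.0924, within 0.00427 to 0.573) and that of Kcnc1 without KPC control 2 (0.116, within 0.00312 to 0.945). Cacna1c and Atp1b1 were not called without KPC control 1 (0.136 and 0.18) or without KPC control 2 (0.19 and 0.0741), within 0.0108 to 0.19 and 0.00855 to 0.952, and Cacna1c was also lost without either LLC control (0.0642 and 0.0621).

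Vascular and matrix genes included Angpt1, the Tie2 ligand that steadies vessels, which was higher at 5.0 and 5.25 in the KPC controls, against 4.42 and 4.24 in the KPP controls and 3.94 and 4.01 in the LLC controls. Its difference was 0.98 ± 0.14 (limma adjusted p = 0.009, and 0.114 without KPC control 2, within 0.00087 to 0.631). Aplnr, the apelin receptor of endothelium, was lower at 2.80 and 3.13 in the KPC controls, against 3.85 and 3.68 in the KPP controls and 3.87 and 4.28 in the LLC controls. It differed by -0.96 ± 0.16 (limma adjusted p = 0.0234, and 0.189 and 0.07 without KPC control 1 and 2, within 0.0081 to 0.843).

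Aplnr was the only called member of 13 endothelial genes, all 13 of which lay below 0 with a median of -0.22. Over all genes, 0.574% were called lower. The summed level of 5 endothelial markers was 290 and 307 RPM in the KPC controls, against 338 to 369 in the C57BL/6J controls, and its part in the lower Aplnr was not tested. Egln3, a prolyl hydroxylase of the hypoxia pathway, was 2.88 and 2.93 in the KPC controls, against 3.88 and 3.97 in the KPP controls and 3.63 and 3.77 in the LLC controls. The difference was -0.90 ± 0.12 (limma adjusted p = 0.00595, and 0.0571 and 0.0601 without KPC control 1 and 2, within 0.00142 to 0.894).

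Lum, a proteoglycan that organizes collagen fibrils, was the only called member of 33 extracellular matrix genes, against 0.391% of all genes called higher. Lum differed by 1.01 ± 0.15 (limma adjusted p = 0.0131). It was lost without KPC control 1 (0.102) and KPC control 2 (0.0974), within 0.0027 to 0.689. Of the 33 matrix genes 25 lay below 0, with a median of -0.17, which was -0.019 against the KPP controls alone and -0.25 against the LLC controls alone. Col1a1, the main fibrillar collagen, was 7.48 and 6.66 in the KPC controls, against 7.37 and 6.92 in the KPP controls and 8.79 and 9.06 in the LLC controls. The KPC libraries overlapped with the KPP controls and were below the LLC controls, and Col1a1 was not called (-0.97, limma adjusted p = 0.4). Fibroblast markers summed to 436 and 424 RPM in the KPC controls, against 287 to 365 in the C57BL/6J controls.

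Immune gene lists had most members above 0 and few calls. Of 19 MHC class I and antigen presentation genes, 17 lay above 0 with a median of 0.66 and 1 was called, and of 8 MHC class II genes all lay above 0 with a median of 0.67, with 0 called by limma and 3 at an unadjusted p under 0.05. The background was 52.8% of all genes above 0 and 0.391% called higher. Of 43 interferon-stimulated genes 36 lay above 0 (median 0.32, 1 called), as did all 11 macrophage genes (median 0.63, 1 called). Summed over 6 macrophage markers, the level was 60.4 and 84.7 RPM in the KPC controls, against 35.0 to 53.9 in the C57BL/6J controls. KPC control 2 was the higher KPC library for these markers and for the named MHC and interferon genes, and the part of the macrophage content in them was not tested.

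H2-Q6, a nonclassical class I gene with near-identical neighbours among which reads can be split, had log2 levels of 3.52 and 4.81 in the KPC controls, against 1.95 and 2.96 in the KPP controls and 2.54 and 2.07 in the LLC controls. KPC control 2 stood over a log2 unit above KPC control 1 (difference 1.79 ± 0.35, limma adjusted p = 0.0476). Without KPC control 2 the adjusted p was 0.355, without KPP control 1 0.0684, without LLC control 1 0.0786 and without LLC control 2 0.098, within 0.0261 to 0.551. Ifit3b, an interferon-induced gene with a close paralog, differed by 1.46 ± 0.29 (limma adjusted p = 0.0476), and Lyz2, the lysozyme of macrophages, by 0.85 ± 0.17 (limma adjusted p = 0.0495). Without KPC control 2 these had limma adjusted p of 0.391 and 0.397, within 0.0175 to 0.537 and 0.00404 to 0.536, and each lost its call in several other leave-outs.

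C4b, complement component 4, was 4.08 and 4.16 in the KPC controls, against 2.61 and 2.95 in the KPP controls and 2.09 and 2.37 in the LLC controls (difference 1.62 ± 0.26, limma adjusted p = 0.0199). Ighm, the constant region of IgM made by B cells, was 5.97 and 5.65 in the KPC controls, against 3.98 and 3.80 in the KPP controls and 4.82 and 3.87 in the LLC controls (difference 1.69 ± 0.24, limma adjusted p = 0.0112). Neither gene overlapped between groups. C4b was lost without KPC control 1 (0.117), KPC control 2 (0.155) and LLC control 2 (0.0524), within 0.00693 to 0.605, and Ighm without KPC control 1 (0.106) and KPC control 2 (0.0625), within 8.81e-05 to 0.906. Of 6 lymphocyte markers 1 was listed, Ptprc, which is not particular to lymphocytes. Ptprc was at 6.06 and 9.80 RPM in the KPC controls, against 4.00 to 8.11 RPM in the C57BL/6J controls.

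**Figure D4:**
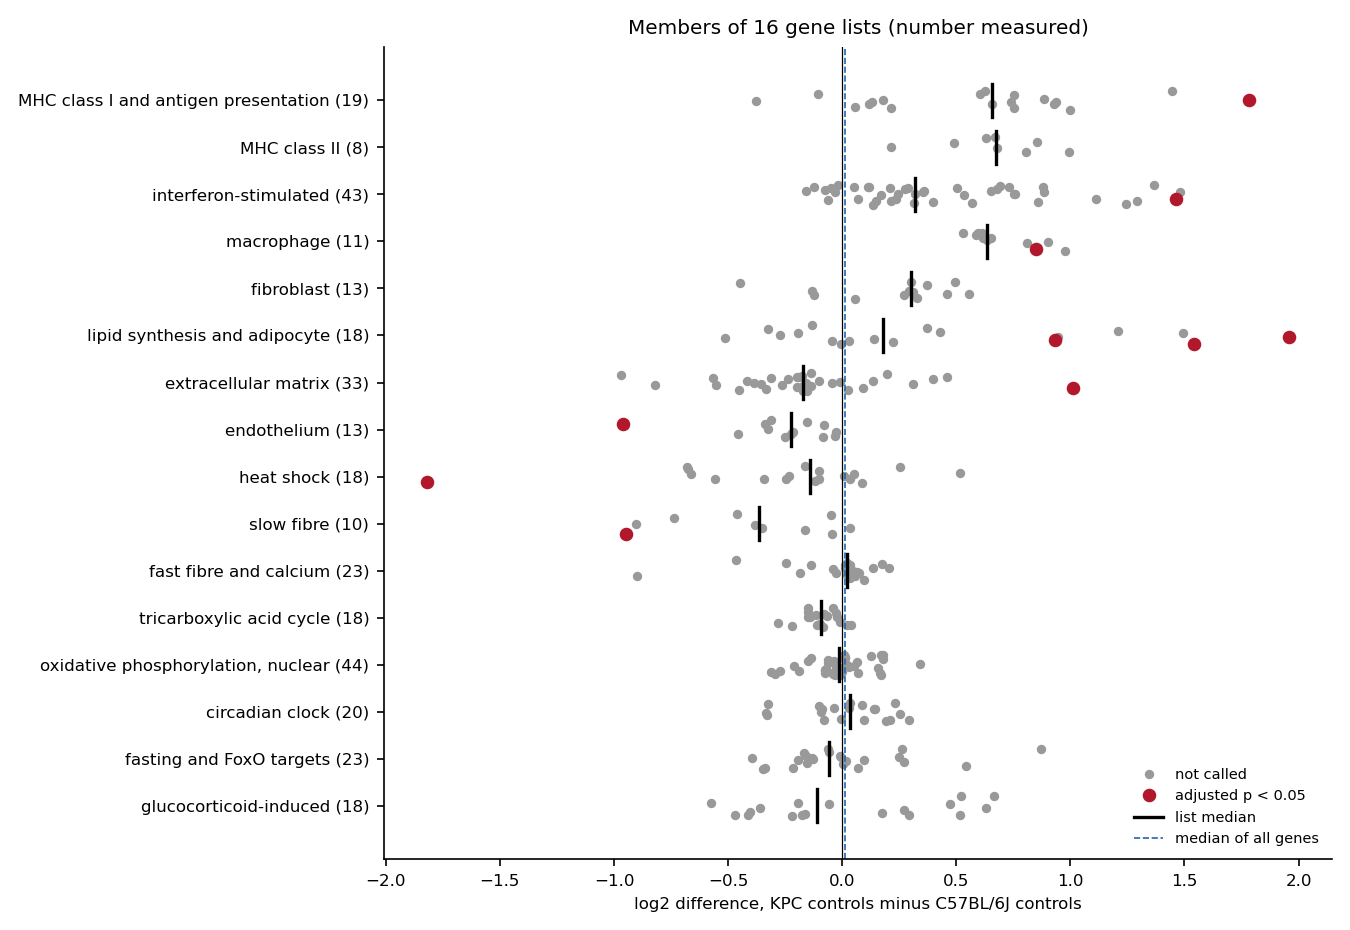
Log2 difference, KPC controls minus C57BL/6J controls (x axis), of each listed member of 16 gene lists (rows, with the number measured). Red points are genes with an adjusted p under 0.05, short black lines are list medians and the dashed line is the median of all genes, 0.013. The MHC class I and II and macrophage medians (0.66, 0.67 and 0.63) lie farthest to the right and the slow fibre median (-0.37) farthest to the left.

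A list of 26 loci known to vary among inbred strains had 14 listed members, and 3 were called: Nnt and Wdfy1 higher and Mid1 lower. Over all genes, 0.965% were called. Wdfy1, an endosomal protein whose exons overlap those of Mrpl44, was 4.34 and 4.32 in the KPC controls, against 3.67 and 3.81 in the KPP controls and 3.43 and 3.39 in the LLC controls (0.75 ± 0.13, limma adjusted p = 0.0233). Mid1, a ubiquitin ligase gene that spans the boundary of the pseudoautosomal region, differed by -1.07 ± 0.20 (limma adjusted p = 0.0343). Both calls were lost without either KPC library (Wdfy1 0.139 and 0.155, within 0.00193 to 0.155; Mid1 0.122 and 0.252, within 0.0116 to 0.252), and that of Mid1 also without KPP control 1 (0.0609), LLC control 1 (0.0717) or LLC control 2 (0.077). Glo1, which varies in copy number between strains, was not called (0.26, limma adjusted p = 0.271).

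H2-Ea-ps, the class II alpha gene silenced by a deletion in C57BL/6J, was at log2 -6.24 and -4.74 in the KPC controls, against -6.24 to -4.66 in the C57BL/6J controls, which is at or near 0 reads in all 6 libraries. The CD2F1 controls had 1.83 and 2.13. H2-K1, a classical class I gene, was 5.94 and 6.81 in the KPC controls, against 5.44 to 5.98 in the C57BL/6J controls, and 1.38 and 1.78 in the CD2F1 controls, whose H2 haplotype differs from that of C57BL/6J. At these MHC genes the KPC controls therefore stood with C57BL/6J and not with CD2F1.

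Genes of muscle wasting gave no call, which is near the 0.965% called over all genes. Of 23 fasting and FoxO target genes 0 were called by limma. An unadjusted p under 0.05 was found for 2 of the 23, against 1899 of all 12021 genes. Trp53, the tumour suppressor p53, was not called (-0.40, limma adjusted p = 0.233). Fbxo32, the atrophy ubiquitin ligase atrogin-1, differed by 0.0042 ± 0.19 (limma adjusted p = 0.995), a value whose sign turned under 4 alternatives, and Trim63, which encodes MuRF1, by -0.34 ± 0.14 (limma adjusted p = 0.281). Mstn, the growth inhibitor myostatin, was 5.51 and 5.39 in the KPC controls, against 4.48 and 4.92 in the KPP controls and 4.92 and 4.92 in the LLC controls. The groups were apart, but the difference of 0.64 ± 0.13 was not called (limma adjusted p = 0.0555).

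Glucocorticoid-induced genes (0 of 18 called by limma, 4 with an unadjusted p under 0.05, median -0.11) and circadian clock genes (0 of 20 called, 2 with an unadjusted p under 0.05, median 0.033) gave none. That too is near the 0.965% called over all genes. Both medians had opposite signs by cohort: the glucocorticoid median was -0.29 against the KPP controls and 0.18 against the LLC controls, and the clock median -0.11 and 0.22. Arntl, the clock activator BMAL1, was 4.20 and 4.15 in the KPC controls, against 3.78 and 3.90 in the KPP controls and 4.40 and 4.51 in the LLC controls. The KPC libraries lay between the C57BL/6J cohorts and Arntl was not called (0.032 ± 0.19, limma adjusted p = 0.957), while the cohorts differed from each other (-0.62, KPP minus LLC, limma adjusted p = 0.017). Dbp and Per3, clock outputs that swing with the time of day, differed by -0.33 ± 0.13 and -0.33 ± 0.18 (limma adjusted p = 0.253 and 0.417). A p that misses the threshold does not show that these genes were at the same level.

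The strain labels could be compared again in other libraries: the 2 KPC cachectic libraries and the 4 C57BL/6J cachectic libraries. These come from the same models as the controls, so strain, colony and model cohort again cannot be told apart. KPP cachectic 1, labelled C57BL/6J, went against its strain label at Nnt, with a log2 level of 6.30, against 6.89 and 6.35 in the KPC cachectic libraries and 4.30 to 4.72 in the other C57BL/6J cachectic libraries. At Rab6b it was between the groups (1.35, against -0.62 and 0.34 in the KPC cachectic libraries and 2.82 to 3.18 in the other C57BL/6J ones). At the Rpl30 copies it was like C57BL/6J: the copies took 26.9% and 24.4% of the family's reads in the KPC cachectic libraries and between 0.12% and 0.34% in the C57BL/6J cachectic ones.

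Of the 47 genes higher in KPC controls, 25 (53.2%) also had cachectic KPC libraries above every C57BL/6J cachectic library, against 7.82% of all genes. Of the 69 lower genes, 33 (47.8%) were separated in the same direction, against 7% of all genes. Without KPP cachectic 1, an alternative chosen after seeing the data, these were 27 of 47 (57.4%, against 10.6% of all genes) and 34 of 69 (49.3%, against 8.3%). The median difference of the higher genes was 0.80 in cachectic and 1.04 in control muscle, and that of the lower genes -0.55 and -0.74. Every listed gene reached log2 1 in at least 4 libraries. A gene below that in all C57BL/6J libraries was listed only through the KPC and C26 libraries, the KPC cachectic ones among them. Cd209f, Gm12191, Rpl30-ps9 and Rpl30-ps10 were such genes. For them the separation in cachectic muscle follows in part from the listing and is no separate support.

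By limma on the cachectic libraries 4 genes were called (0.0333% of all genes), 3 higher (0.025%) and 1 lower (0.00832%): Gm12191, Rpl30-ps10, Fzd6 and Rprl3, an RNA like that of RNase P, of which the first 3 are among the 116. The limit from the listing given above also holds for the calls of Gm12191 and Rpl30-ps10. Fzd6 differed by -1.94 ± 0.22 in cachectic muscle (limma adjusted p = 0.0325). Psd3, Kcnab1, Iqgap2 (a scaffold of the actin cytoskeleton, 1.84 in control muscle), Angpt1 and Lum were separated again in cachectic muscle, at 1.01, 1.6, 1.4, 1.58 and 1.13. Adipoq (0.34), Scd1 (0.17), Car3 (0.32), Hspb7 (-1.0), Actn2 (-0.32), Nrap (-0.55), Ankrd1 (-1.75) and Xirp1 (-0.92) had cachectic groups that overlapped. So did some of the 17 genes called in every leave-out: Kbtbd12 (0.80), Ddah1 (0.84), Mettl21e (0.53), Zfp984 (-0.75) and 2610035D17Rik (-1.35). The rest of the 17 were separated in the same direction as in the controls. Aplnr was the only gene of the 116 separated in the opposite direction, at 1.5 ± 0.53 in cachectic muscle; that difference between conditions was not tested.

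**Figure D5:**
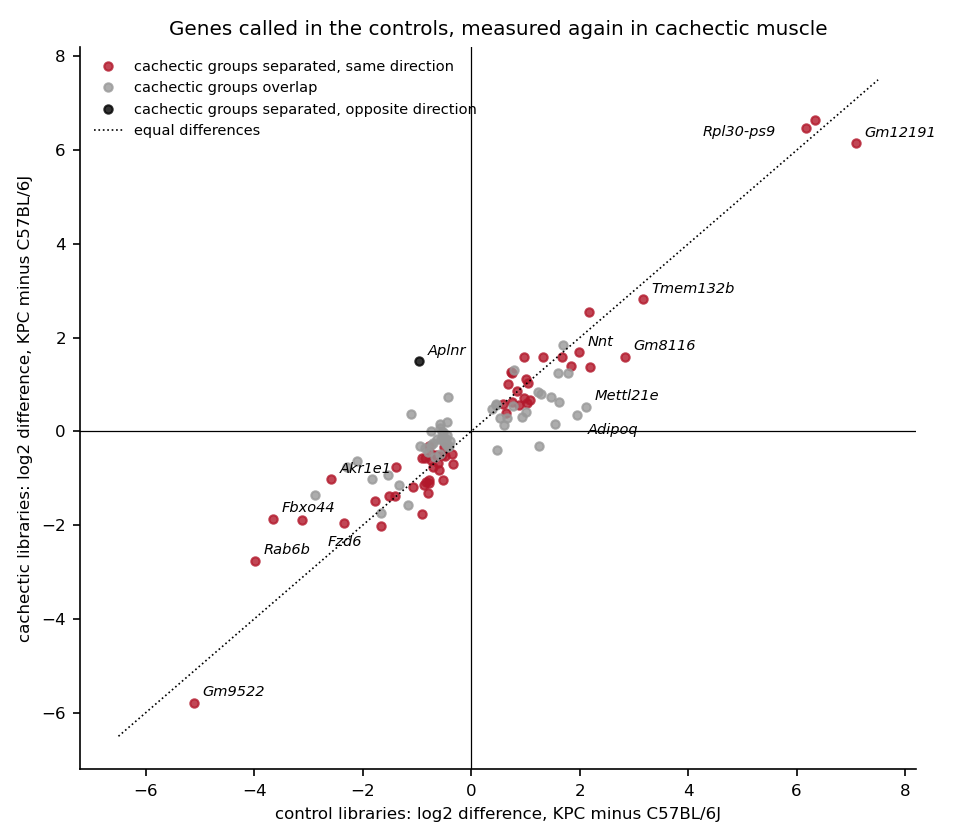
Log2 difference, KPC minus C57BL/6J, in cachectic muscle (y axis) against that in control muscle (x axis) for the 116 genes called in the controls. Red points are the 58 genes whose cachectic libraries are separated in the same direction, grey points overlap, and the black point, Aplnr, is separated in the opposite direction; the dotted line marks equal differences.

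The CD2F1 controls allowed a description against a further strain. They were nearer to the KPC mean than to the C57BL/6J mean at 24 of the 47 higher genes (51.1%) and 28 of the 69 lower genes (40.6%), against 39.8% of all genes. Nnt, Kbtbd12 (6.68), Ddah1 (3.49), Mettl21e (3.40) and Rab6b were near KPC. Fbxo44 (1.58), Zfp982 (1.18), Rpl30 (6.25), Fzd6 and Akr1e1 were near C57BL/6J. Tmem132b, a membrane protein of little-known function, was at 3.27 and 2.90 in the KPC controls, against -1.11 and -0.55 in the KPP controls and 0.99 and 0.33 in the LLC controls. It was called (3.17 ± 0.48, limma adjusted p = 0.0146), but not without KPC control 1 (0.122) or KPC control 2 (0.0971), within 0.000511 to 0.39, and it also differed between the C57BL/6J cohorts (-1.49, KPP minus LLC, limma adjusted p = 0.0384).

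Imprinted genes were called in both directions: Peg3, a paternally expressed zinc-finger gene, was lower (-0.88 ± 0.11, limma adjusted p = 0.00567, and 0.0715 without KPC control 2, within 0.000941 to 0.541), and Ndn, the paternally expressed necdin, was higher (0.87 ± 0.17, limma adjusted p = 0.0464). Ndn was called without LLC control 2 and not without any other single library (0.0643 to 0.269, within 0.018 to 0.399 over all alternatives). Of the 116 genes, 102 were protein-coding, 8 were pseudogenes and 6 lay on chromosome X. In the annotation 36 of the 116 share exonic bases with another gene and 12 with another listed gene, and the sources used here do not give the handling of strand in counting, so reads of such pairs may be mixed.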

How the data were processed

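RNA of snap-frozen tibialis anterior was purified with Trizol, depleted of ribosomal RNA and made into libraries by standard Illumina methods, per the labels' protocols. The submitters' processing notes name GRCm38, featureCounts 1.4.5 and limma; the sources used here do not give the aligner, annotation or strand handling, and GRCm38 is the C57BL/6J genome, so that any effect of other alleles on alignment was not tested. The authors deposited 1 table of log2 values; 100% gave whole reads (tolerance 0.001) as log2 RPM (reads per 1000000) with 0.5 added to counts and 1 to the total, and every gene reached log2 1 in at least 4 libraries. Of 12021 genes, 11990 carried a symbol; positions are from GENCODE M21 on GRCm38.

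A limma fit (3.58.1, R 4.3.3; lmFit, contrasts.fit, eBayes with trend) on the 8 control libraries gave 1 mean per strain label; cohort contrasts used 1 mean per group, and the 8 cachectic libraries were fitted separately in the same way. Tests were two-sided. Alternatives were other scalings, a filter (mean log2 of at least 2), other variance models, voom weights on recovered reads, other libraries in the fit, other thresholds and leave-outs.

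The members and the 34 gene lists were chosen with earlier results of these data known. The text names, from the called genes with a mean log2 of at least 1 and no overlap, some of the 14 largest rises and falls, list members with the smallest p (up to 3), 24 genes set by name, and genes chosen after their values were seen (those kept in all leave-outs, near-identical copies, window members, metabolic, channel and imprinted genes). On simulated KPC and C57BL/6J controls, 96% of 100 genes given a log2 difference of 1 and 100% of 100 given 2 were called, with 6 false calls of 202. The simulation gave every gene the same dispersion, no difference between cohorts or at CD2F1, and changes only at genes with many reads. These rates hold for those settings and do not measure missed or false calls in the real libraries.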

Additional observations from a re-analysis of the deposited data

Results flagged for a closer look

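Values of the named genes in the 4 C57BL/6J controls were checked for a library far from the other 3, by the gap to its nearest neighbour over the group's range. Of 102 genes checked, 4 passed the 95% limit of Dixon's test for 4 values, and chance flags about 1 in 20. Adipoq in KPP control 2 was at log2 0.67, with the other C57BL/6J controls at 0.47 to 0.48. Mstn in KPP control 1 was at 4.48, with the others at 4.92. Dbp in KPP control 2 was at 6.42, with the others at 5.91 to 5.98. Trp53 in KPP control 1 was at 2.53, with the others at 2.85 to 2.91.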

How the results depend on the processing

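Of the 116 calls, 105 were kept under quantile normalization (161 called), 106 under median centring (162) and 110 with voom weights (127). The count was 43 without the variance trend, 77 with only the groups compared in the fit, 14 with all 16 libraries, 454 with 1 mean per C57BL/6J cohort, 268 at an adjusted p under 0.10, 48 with a log2 difference of at least 1, 890 without both KPP controls, 176 without both LLC controls and 36 to 121 leaving out 1 library. The stricter filter tested 9620 genes and called 83, all among the 116. For the same settings (no trend, only the groups compared, all 16 libraries, p under 0.10, log2 of at least 1, 1 library left out) KPC minus KPP gave 45, 83, 16, 855, 57 and 106 to 398 calls, not 321, and KPC minus LLC 63, 418, 22, 1644, 100 and 33 to 320, not 692. KPP minus LLC gave 0, 136, 0, 1137, 43 and 0 to 411, not 390, and 126 under quantile normalization and 150 under centring. Its counts of 0 by limma had 2604 (no trend) and 1022 (all 16 libraries) genes at an unadjusted p under 0.05, and voom weights called 345. Quantile normalization split KPC minus KPP into 102 higher and 177 lower, and KPC minus LLC into 244 and 374. The 4 cachectic calls became 0 under the stricter filter (684 genes at an unadjusted p under 0.05), 2 with the replicate block, 1 with only the groups compared, 49 with all 16 libraries, 8 with 1 mean per cohort and 0 to 7 leaving out 1 library (0 without KPC cachectic 1, 1 without KPC cachectic 2, 7 without LLC cachectic 2). Where an alternative changed a result, the cause was not tested. Among the genes whose values are printed here, sign turned for 3 uncalled ones: Fbxo32, at 0.0042, became -0.013 under centring and -0.17 to 0.18 leaving out 1 library (-0.0013 without KPP control 1, -0.15 without LLC control 2), H2-Ea-ps, at 0.21, became -0.54 to 0.96, and Arntl, at 0.032, became -0.091 to 0.15 (-0.051 without KPP control 2). The replicate numbers did not pair the samples: same-numbered deviations correlated at -0.035 to 0.144. With the replicate number as a block there were 110 calls for KPC minus C57BL/6J (93 shared), 398 for KPC minus KPP, 649 for KPC minus LLC and 373 for KPP minus LLC. Among gene lists, other scalings turned only the medians of nuclear oxidative phosphorylation (0.013 under quantile normalization) and of mitochondrially encoded genes (-0.015 under centring). With 28584279 reads or more per library, the spread of 2 to 4 libraries limits precision more than counting does; leaving out 1 KPC library leaves a lone sample, assumed to vary like the others.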
